A study of Mus musculus with 18 samples.

Results

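The genes described here are those of the unfolded protein response and the integrated stress response, chosen as a list of 34 genes with roles in folding, degradation or stress signalling at the endoplasmic reticulum (ER). Each gene was read from the probe set that names it alone and that had the highest mean over all arrays. Of the 34 genes, 31 were measured among 15491 genes, and Atf3, Chac1 and Creld2 were not analysed here. The 31 genes fall into 4 arms: 13 ER chaperones and folding enzymes, 5 genes of ER-associated degradation and the translocon, 4 sensors and their transcription factors, and 9 genes of the ATF4 and CHOP arm. The cells were primary hepatocytes of C57BL/6J mice, read on Affymetrix arrays and cultured in DMEM with glucose, pyruvate and albumin. The cells carried an adenovirus for 48 hours, with PGC-1a1 or PGC-1a4 as its insert or, as the vector control, with neither, and every virus also expressed GFP. The coactivator PGC-1alpha, known for its role in mitochondrial biogenesis, is expressed in several isoforms: PGC-1a1 has the full length and PGC-1a4, made by alternative splicing, is shorter. The cells then received TNFalpha, an inflammatory cytokine, at 2 ng per mL for 2 hours, or PBS, which gave 6 groups of 3 arrays.

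Levels are log2 values, and differences are on the log2 scale, with their SE and with 3 arrays in each group. A gene was called where limma's p, adjusted by the Benjamini-Hochberg method over all 15491 genes, was under 0.05, and "passed" refers to that threshold. The labels do not say whether arrays of a group stem from different cultures or mice, so that the p-values reflect how far these arrays spread, and that spread may be technical. Ppargc1a, the gene that encodes both isoforms, read 7.21 ± 0.17 (SD, n = 3) in vector, 6.93 ± 0.07 in PGC-1a1 and 7.11 ± 0.24 in PGC-1a4 cells under PBS. Its probe set thus gave no check of the virus labels, and where its probes lie relative to the inserts was not examined. The 9 TNF arrays had lower medians (7.04 to 7.10) than the 9 PBS arrays (7.24 to 7.32), and treatment and array set cannot be told apart. The mean level of 6 measured hepatocyte markers was 13.69 in the PBS arrays and 13.31 in the TNF arrays, with group means from 12.91 to 13.89. These markers did not move together. In vector cells with TNF, Hnf4a went from 11.77 to 8.99, Fgb from 14.37 to 11.31 and Cyp3a11 from 13.70 to 13.59. Alb went from 15.58 to 15.65, Apoa1 from 13.69 to 13.86 and Apoa2 from 13.25 to 14.08. Group means of markers of other cell types were 6.93 to 7.65 for 3 Kupffer cell or macrophage genes, 7.27 to 7.95 for 6 sinusoidal endothelial genes, 7.12 to 7.59 for 7 stellate cell or fibroblast genes, 6.56 to 7.38 for 5 cholangiocyte genes and 6.39 to 6.71 for 4 leukocyte genes. Single genes stood well above these means, such as Acta2 (10.82) and Epcam (10.44) in vector PBS cells. The endothelial genes did not move together either. In vector cells with TNF, Lyve1 went from 7.12 to 10.17, Cdh5 from 7.69 to 8.91 and Stab2 from 7.55 to 7.97. Pecam1 went from 6.96 to 6.54, Clec4g from 7.95 to 7.35 and Oit3 from 6.94 to 6.73. In these bulk samples fewer cells of a type and less RNA per cell cannot be told apart.

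The ER is where secreted proteins fold, and hepatocytes, which secrete most plasma proteins, hold much of it. When unfolded proteins accumulate there, 3 sensors in the ER membrane are known to respond. ATF6 is cut to release a transcription factor, IRE1 (encoded by Ern1) splices the mRNA of XBP1, and both factors raise chaperone and degradation genes. PERK (encoded by Eif2ak3) phosphorylates the translation factor eIF2alpha, which lowers general protein synthesis while favouring translation of ATF4. ATF4 and its target CHOP (encoded by Ddit3) raise genes of amino acid supply, redox balance and cell death. Other kinases that sense amino acid shortage, double-stranded RNA or heme converge on the same step, so that the ATF4 and CHOP arm is also called the integrated stress response.

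Both branches act through short promoter elements, which are shown here because the ER stress element was found in part of the chaperone arm and the C/EBP-ATF element in part of the ATF4 and CHOP arm, and neither in the other of these 2 arms. Promoter windows of 300 bases, from 250 before to 50 after the start, were taken from RefSeq (assembly GRCm38.p6) for 31 of the 34 listed genes; Atf6, Hyou1 and Manf had none. The ER stress element, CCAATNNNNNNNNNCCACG on either strand, is the classical site of ATF6 with the factor NF-Y. It stood in 0.1187% of all 32851 windows and in 8 of the 31 genes. These were 7 of 12 chaperone genes and Syvn1, with 0 of 11 genes of the ATF4 and CHOP arm. For each element the share is over windows, of which 5826 belong to a gene already listed, while members are counted by gene. No difference between these shares was tested. Windows are printed on the strand of the gene with the match in capitals, and a match on the opposite strand starts with CGTGG.
Hspa5, chr2:34772017-34772051: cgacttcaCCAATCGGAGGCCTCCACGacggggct
Hsp90b1, chr10:86705630-86705664: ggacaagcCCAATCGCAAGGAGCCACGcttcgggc
Hsp90b1, chr10:86705525-86705559: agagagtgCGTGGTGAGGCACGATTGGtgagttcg
Calr, chr8:84847067-84847101: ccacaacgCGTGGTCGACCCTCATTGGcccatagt
Canx, chr11:50325792-50325826: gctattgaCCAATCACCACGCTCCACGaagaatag
Dnajc3, chr14:118937819-118937853: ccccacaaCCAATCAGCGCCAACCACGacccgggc
Pdia6, chr12:17266483-17266517: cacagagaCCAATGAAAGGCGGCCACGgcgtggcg
Creld2, chr15:88819512-88819546: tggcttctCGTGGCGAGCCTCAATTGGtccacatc
Syvn1, chr19:6046524-6046558: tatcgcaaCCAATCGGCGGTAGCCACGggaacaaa

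The related ER stress element II, ATTGGNCCACG, stood in 0.0365% of windows, among them those of Dnajb11 and Herpud1. The unfolded protein response element TGACGTGG stood in 0.6758% of windows and in none of the members'. The composite C/EBP-ATF element, TGATGNAA on either strand, is bound by ATF4 or CHOP with a C/EBP partner. It stood in 3.9694% of all windows, in 6 of 11 genes of the ATF4 and CHOP arm, in Herpud1 and in 0 of 12 chaperone genes. These windows are shown for the arm, again with the match in capitals; on the opposite strand the element ends in CATCA.
Asns, chr6:7693217-7693240: cagccacaTGATGAAActtcccgc
Trib3, chr2:152344031-152344054: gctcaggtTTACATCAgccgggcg
Nupr1, chr7:126625565-126625588: gggccagaTTGCATCAgacagggc
Vldlr, chr19:27216812-27216835: agcaatagTTGCATCAgcgctcct
Chac1, chr2:119351041-119351064: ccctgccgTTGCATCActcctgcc
Atf3, chr1:191183428-191183451: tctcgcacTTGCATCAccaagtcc
A match describes these letters only, and no binding was measured.

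Across the 6 groups, the mean of the chaperone arm and that of the ATF4 and CHOP arm were both highest in vector cells with TNF. With TNF both means were lower in cells with either PGC-1a isoform. Each arm was summarised on each array as the mean of its genes, less the mean of the vector PBS arrays. The chaperone mean was 1.12 ± 0.01 (SD, n = 3) in vector TNF cells, 0.67 ± 0.01 in PGC-1a1 TNF cells and 0.70 ± 0.03 in PGC-1a4 TNF cells. The ATF4 and CHOP mean was 1.66 ± 0.01, 1.36 ± 0.02 and 1.47 ± 0.05 in the same groups. By this mean the 3 vector TNF arrays lay above all 6 other TNF arrays in both arms, while the isoforms lay close to each other in the chaperone arm. The chaperone medians separated the same way, at 1.18 to 1.23 in vector and 0.63 to 0.77 in the other TNF arrays. The medians of the ATF4 and CHOP arm did not. They were 1.36, 1.39 and 1.41 in vector, 1.40, 1.37 and 1.31 in PGC-1a1 and 1.43, 1.47 and 1.43 in PGC-1a4 TNF arrays. Under PBS, PGC-1a1 cells had means of 0.20 ± 0.08 for chaperones and 0.21 ± 0.05 for the ATF4 and CHOP arm, and PGC-1a4 cells 0.03 ± 0.04 and -0.11 ± 0.11. The sensors' mean was 0.75 ± 0.19 in vector, 0.65 ± 0.07 in PGC-1a1 and 0.82 ± 0.04 in PGC-1a4 TNF cells, and the degradation and translocon mean was 0.25 ± 0.06, 0.34 ± 0.02 and 0.16 ± 0.11. In both of these arms the arrays of the isoforms did not overlap, and the vector TNF arrays overlapped those of at least 1 isoform.

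Marker genes moved between the same TNF groups. The hepatocyte mean was 12.91 in vector TNF cells, the lowest of the 6 groups, against 13.42 in PGC-1a1 and 13.61 in PGC-1a4 TNF cells, and the vector TNF arrays (12.77 to 13.03) did not overlap those of the isoforms (13.40 to 13.66). Of its 6 genes 5 were lowest in vector cells among the TNF groups, and Hnf4a, a hepatocyte transcription factor, had means of 8.99, 11.23 and 10.69 there. The mean of the 3 Kupffer cell or macrophage genes was highest in vector TNF cells, 7.65 against 7.07 and 7.07, and all 3 genes were highest there. Of these, Cd163 was dim: its group means were 4.22 to 4.88, and it lay under the lower quartile on all arrays. The means in the same order were 7.95, 7.45 and 7.70 for the sinusoidal endothelial genes, of which 3 of 6 were highest in vector cells, and 7.50, 7.12 and 7.12 for the stellate cell or fibroblast genes, of which 5 of 7 were. In these 3 lists, too, the vector TNF arrays did not overlap the others, while the cholangiocyte and leukocyte arrays did. Under PBS the vector, PGC-1a1 and PGC-1a4 means were 13.73, 13.46 and 13.89 for hepatocyte genes and 6.97, 6.93 and 7.01 for Kupffer cell or macrophage genes. The part of these markers in the arm means, and in the differences from vector with TNF given below, was not tested.

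**Figure D1:**
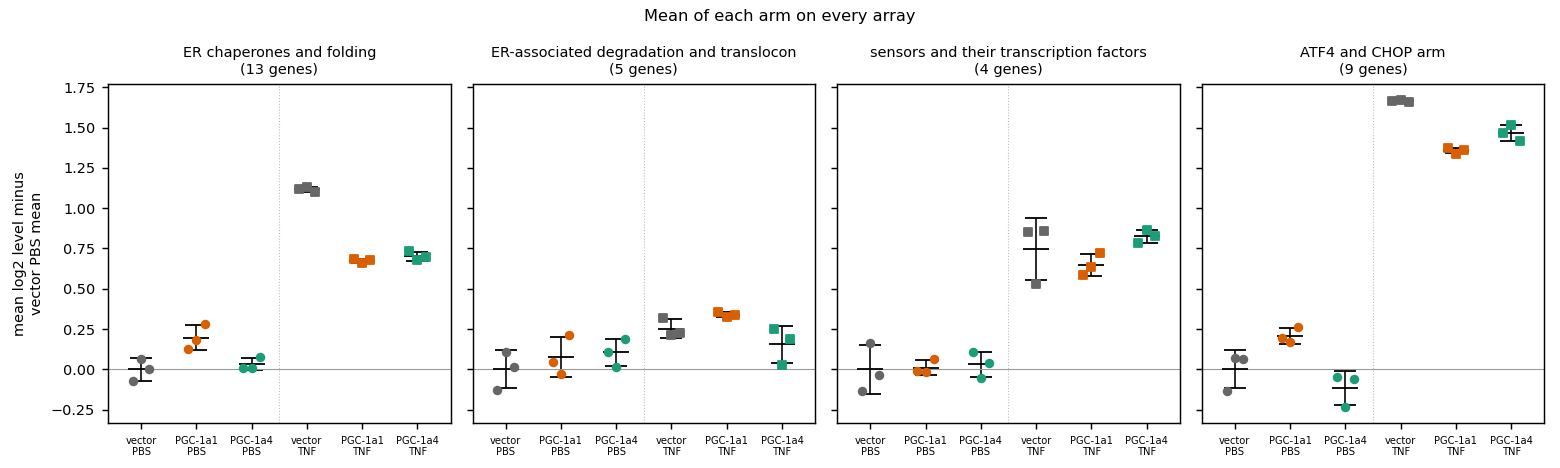
Mean log2 level of the genes of each arm on every array, less the vector PBS mean (vertical axis), by group (horizontal axis). Points are arrays (circles PBS, squares TNF), and bars are the mean ± SD of 3 arrays; in the chaperone and the ATF4 and CHOP arms the vector TNF arrays are above the other TNF arrays.

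TNF arrays were compared with PBS arrays within each virus. In vector cells 26 of 31 members were higher with TNF and 2 were lower, beside 34.7% and 36.6% of all genes. Their median difference was 0.99, against -0.04 over all genes. In PGC-1a1 cells 22 were higher and 4 lower, with a median of 0.52 (34.6% and 35% of all genes, median -0.04). In PGC-1a4 cells 25 were higher and 4 lower, with a median of 0.72 (37.4% and 32.8%, median 0.02). These counts use the brightest probe set; without the members that had another probe set called the opposite way, 22 of 27 were higher and 2 lower in vector, 20 and 3 of 28 in PGC-1a1, and 21 and 4 of 27 in PGC-1a4 cells. Quantile normalization over all 18 arrays, which removes the gap between the array sets, gave 22 higher and 5 lower in vector, 17 and 7 in PGC-1a1, and 18 and 6 in PGC-1a4 cells. Centring each array on its median moved the median difference of all genes to 0.18, 0.19 and 0.21 and gave 26 higher and 2 lower, 23 and 2, and 25 and 3 members. Over all genes it made 62.9%, 66.7% and 66.2% of the calls higher ones, against 48.7%, 49.6% and 53.3% without it.

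The whole ATF4 and CHOP arm was higher with TNF in vector cells, 9 of 9 genes with a median of 1.39, and in PGC-1a4 cells, 9 of 9 with a median of 1.45. In PGC-1a1 cells 7 of 9 were higher, with a median of 1.23. Ddit3, which encodes CHOP, read 9.75, 9.92 and 9.75 in vector PBS arrays and 12.34, 12.47 and 12.40 in vector TNF arrays. The groups did not overlap, and the difference was 2.60 ± 0.09, or 6.05-fold (adjusted p = 2.06e-13). Vldlr, the very low density lipoprotein receptor and a known ATF4 target, read 7.30, 6.96 and 7.42 with PBS and 10.77, 10.60 and 10.75 with TNF. That was the largest difference among the members, 3.48 ± 0.13 or 11.2-fold (adjusted p = 3.82e-13). Ppp1r15a, which encodes GADD34, the subunit that directs a phosphatase to eIF2alpha, rose by 2.35 ± 0.09 (adjusted p = 4.16e-13), from 9.80, 10.06 and 10.09 to 12.29, 12.46 and 12.24.

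Nupr1, a stress-induced chromatin protein, rose by 2.27 ± 0.08 in vector cells, and Asns, asparagine synthetase, by 1.39 ± 0.08. Cebpb, a C/EBP factor that is also part of the acute phase response, rose by 0.90 ± 0.08, Sesn2, a regulator of mTORC1, by 0.86 ± 0.23, and Trib3, a pseudokinase that binds ATF4 and CHOP, by 0.76 ± 0.11. The mRNA of Atf4 itself rose least, by 0.36 ± 0.07, from 13.12, 13.14 and 13.18 to 13.50, 13.59 and 13.43; ATF4 is known to be controlled mainly at translation, which arrays do not read. In PGC-1a1 cells the Sesn2 difference was -0.02 ± 0.23 and that of Trib3 0.21 ± 0.11, and neither passed. Atf4 passed there at 0.19 ± 0.07, but was at -0.032 after quantile normalization and did not pass without PGC-1a1 PBS replicate 1 (0.18) or replicate 2 (0.18). Trib3 in PGC-1a1 cells was at -0.29 after quantile normalization.

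**Figure D2:**
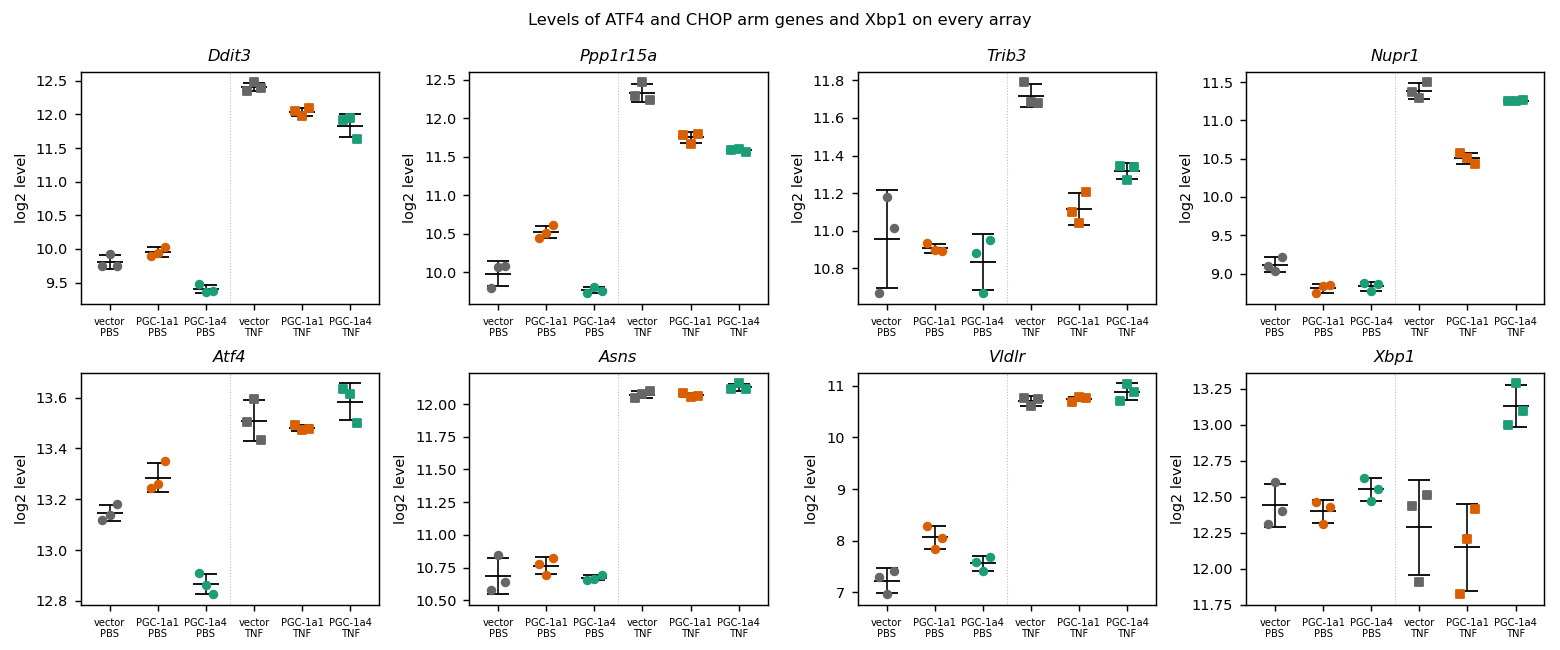
Log2 level (vertical axis) of 7 genes of the ATF4 and CHOP arm and of Xbp1 on every array, by group. Points are arrays (circles PBS, squares TNF) and bars are the mean ± SD of 3 arrays; each panel has its own scale. Ddit3, Ppp1r15a, Trib3 and Nupr1 are highest in vector TNF arrays, while the TNF arrays of Asns lie between 12.04 and 12.16 in all 3 viruses.

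Of the 13 chaperone genes, 11 were higher and 1 was lower with TNF in vector cells (median 1.21), 9 and 3 in PGC-1a1 cells (median 0.50) and 10 and 3 in PGC-1a4 cells (median 0.74). Pdia4, a protein disulfide isomerase of the ER, read 8.84 to 9.06 in vector PBS arrays and 11.79, 12.07 and 11.80 in vector TNF arrays. The difference was 2.92 ± 0.09, or 7.58-fold (adjusted p = 7.26e-14). It was 2.42 ± 0.09 in PGC-1a4 cells and 1.28 ± 0.09 in PGC-1a1 cells, and in all 3 viruses the arrays of the treatments did not overlap.

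Manf, a secreted ER protein that binds BiP, rose by 1.95 ± 0.08 in vector cells, Sdf2l1, a partner of the ER DnaJ proteins, by 1.78 ± 0.10, Dnajb9 (ERdj4), a BiP co-chaperone, by 1.63 ± 0.08, and Dnajc3 (P58IPK), another, by 1.60 ± 0.10. Canx, the lectin chaperone calnexin, rose by 1.39 ± 0.11, Hsp90b1 (GRP94) by 1.21 ± 0.10 and Hspa5 (BiP), the main ER chaperone of the Hsp70 family, by 0.95 ± 0.07 on its brightest probe set, while another was at -0.32. Hspa5 went from 13.49, 13.49 and 13.53 to 14.49, 14.38 and 14.49, without overlap. Calr, the soluble lectin chaperone calreticulin, went the other way, from 13.81, 13.91 and 13.86 to 13.09, 13.09 and 13.06. It fell by 0.78 ± 0.07 in vector cells (adjusted p = 9.42e-09), by 0.53 ± 0.07 in PGC-1a1 cells and by 1.13 ± 0.07 in PGC-1a4 cells.

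Hyou1, a large ER chaperone that exchanges the nucleotide of BiP, differed by -0.18 ± 0.08 in vector cells and did not pass (adjusted p = 0.0542). It fell by 0.86 ± 0.08 in PGC-1a1 cells and by 0.90 ± 0.08 in PGC-1a4 cells. Dnajb11 (ERdj3), a further BiP co-chaperone, rose by 0.86 ± 0.07, 0.50 ± 0.07 and 0.50 ± 0.07 in vector, PGC-1a1 and PGC-1a4 cells, but was at -0.0022 in PGC-1a1 cells after quantile normalization. Pdia3, the disulfide isomerase that works with calnexin, rose by 0.99 ± 0.10 in vector and 0.53 ± 0.10 in PGC-1a4 cells. In PGC-1a1 cells its difference was -0.14 ± 0.10 (limma adjusted p = 0.242). These values of Pdia3 are from its brightest probe set. Its second probe set was called in PGC-1a1 cells, but not in vector or PGC-1a4 cells. Pdia6 passed in opposite directions, at 0.20 ± 0.07 in vector cells, -0.39 ± 0.07 in PGC-1a1 and -0.36 ± 0.07 in PGC-1a4 cells. The vector value of Pdia6 did not hold: it was -0.24 after quantile normalization, and it did not pass without vector PBS replicate 1 (0.17) or vector TNF replicate 3 (0.18). Sdf2l1 in PGC-1a1 cells, at 0.31 ± 0.10, did not pass without PGC-1a1 PBS replicate 1 (0.24) or PGC-1a1 TNF replicate 1 (0.25).

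The genes whose promoter windows held the ER stress element did not move together. Their differences in vector cells ran from -0.78 for Calr and -0.71 for Syvn1 through 0.20 for Pdia6, 0.95 for Hspa5 and 1.21 for Hsp90b1 to 1.39 for Canx and 1.60 for Dnajc3. Of the 4 measured genes with the C/EBP-ATF element in the ATF4 and CHOP arm, all passed in vector cells, with 0.76 for Trib3, 1.39 for Asns, 2.27 for Nupr1 and 3.48 for Vldlr. The members of that arm without a match also passed there, with values from 0.36 for Atf4 to 2.60 for Ddit3.

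In the degradation and translocon arm 3 genes were higher and 1 was lower in vector cells, 3 and 1 in PGC-1a1 cells, and 2 and 1 in PGC-1a4 cells. Each count of higher genes includes Sel1l, the partner of HRD1, by its brightest probe set; without it they were 2, 2 and 1. Syvn1, the ubiquitin ligase HRD1, read 10.45, 10.66 and 10.50 with PBS and 9.82, 9.85 and 9.81 with TNF in vector cells, a fall by 0.71 ± 0.09 (adjusted p = 3.18e-06). It fell by 0.23 ± 0.09 in PGC-1a1 and 0.28 ± 0.09 in PGC-1a4 cells. The first of these did not pass without PGC-1a1 PBS replicate 2 (-0.24), PGC-1a1 PBS replicate 3 (-0.16), PGC-1a1 TNF replicate 2 (-0.22) or PGC-1a1 TNF replicate 3 (-0.20), and the second without PGC-1a4 PBS replicate 3 (-0.22). Edem1, which extracts misfolded glycoproteins for degradation, rose by 0.45 ± 0.08 in vector cells, and Sec61b, a subunit of the translocon, by 0.31 ± 0.10. After quantile normalization Edem1 was at -0.0088 and Sec61b at -0.10 there, and without vector PBS replicate 1 Sec61b was at 0.18 and did not pass. Herpud1, a scaffold of the degradation complex, did not pass in any of the 12 comparisons on its brightest probe set. The arrays of that probe set were spread, from 11.39 to 12.05 in vector TNF and from 10.78 to 11.98 in PGC-1a4 TNF cells. Its other probe set was called between TNF and PBS in PGC-1a1 cells. With TNF it was called in PGC-1a1 cells against vector and against PGC-1a4, and it was called in both interactions of PGC-1a1.

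Among the sensors, Atf6 rose by 1.40 ± 0.14 in vector cells, Ern1 by 1.17 ± 0.08 on its brightest probe set, while another was at -0.61, and Eif2ak3 by 0.57 ± 0.13. Eif2ak3, however, was dim: its mean lay under the lower quartile of all values in 4 of the 6 groups. On its brightest probe set Xbp1 mRNA differed by -0.15 ± 0.15 in vector and -0.25 ± 0.15 in PGC-1a1 cells, neither of which passed. On that probe set it rose by 0.58 ± 0.15 in PGC-1a4 cells (limma adjusted p = 0.00287). Of its 3 other probe sets, however, all 3 were called in vector cells and 2 in PGC-1a1 cells. The arrays read the amount of Xbp1 mRNA and not its splicing.

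Probe sets of the same gene did not always move together in this comparison. Of 15 members called in vector cells that had further probe sets, 12 had another one called the same way and 4 had one called the opposite way, namely Hspa5, Pdia6, Sel1l and Ern1. Sel1l differed by 1.15 on its brightest probe set and by -0.85, -1.01 and -2.13 on the other 3. Its direction with TNF thus differed with the probe set, and the counts take the brightest. The remaining probe sets of Ern1 were at 0.24 and 1.00 and that of Hspa5 at 1.04, and the other one of Pdia6 was at -0.66. In PGC-1a4 cells the rise of Xbp1 held on the brightest probe set only, since others were at 0.15, -0.48 and -0.71, and in PGC-1a1 cells the second probe set of Syvn1 was at 0.38. Both probe sets of Calr were lower with TNF in all 3 viruses, with -1.44 on the second in vector cells. All 5 of Vldlr, both of Ddit3 and both of Nupr1 were called higher there.

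**Figure D3:**
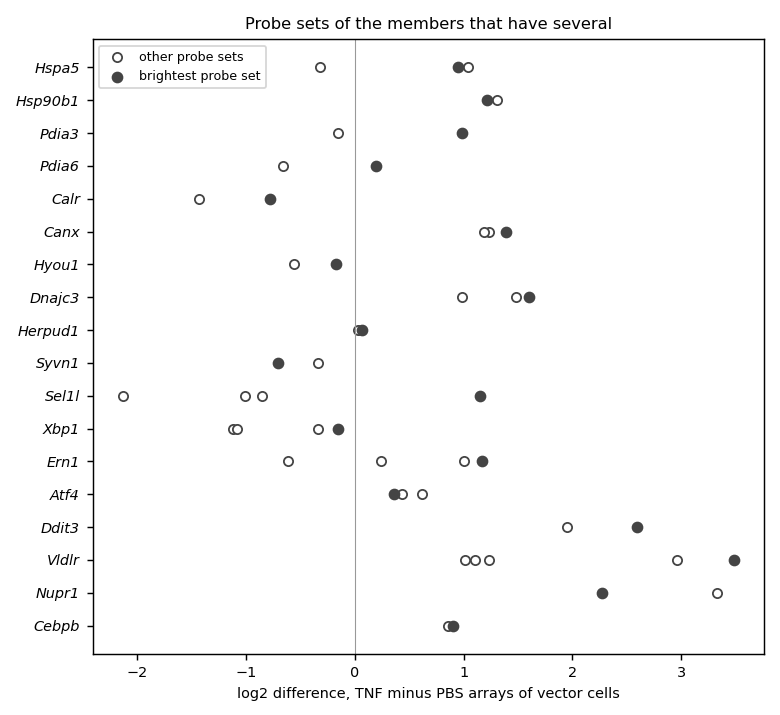
Log2 difference between TNF and PBS arrays of vector cells (horizontal axis) for each probe set of the 18 members that have several (vertical axis). Filled points are the brightest probe set, which represents the gene elsewhere, and open points are the others; Sel1l, Pdia6, Ern1 and Hspa5 have points called on both sides of 0, while Vldlr, Ddit3 and Nupr1 lie to the right and Calr to the left.

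Under PBS, 5 of 31 members were higher and 4 lower in PGC-1a1 than in vector cells, beside 7.88% and 4.11% of all genes. The median was 0.08 over the members and -0.01 over all genes. Manf read 10.62, 10.80 and 10.69 in vector arrays and 12.01, 11.93 and 12.19 in PGC-1a1 arrays. Dnajb9 read 10.91, 10.99 and 10.82 against 11.98 to 12.21. Neither gene overlapped between groups, and the differences were 1.34 ± 0.08 or 2.53-fold for Manf (adjusted p = 3.8e-09) and 1.15 ± 0.08 or 2.22-fold for Dnajb9 (adjusted p = 2.74e-08). Vldlr rose by 0.84 ± 0.13, from 7.30, 6.96 and 7.42 to 8.29, 7.84 and 8.05, and Ppp1r15a by 0.54 ± 0.09. Hspa5 rose by 0.27 ± 0.07, and Pdia6 fell by 0.49 ± 0.07 on its brightest probe set, while its second was not called. The remaining falls were of 0.30 ± 0.08 for Nupr1, 0.29 ± 0.09 for Pdia4 and 0.27 ± 0.08 for Ern1.

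Those 3 small falls and the rise of Hspa5 depended on single arrays. Hspa5 did not pass without PGC-1a1 PBS replicate 3 (0.24), and Nupr1 not without vector PBS replicate 3 (-0.25) or PGC-1a1 PBS replicate 1 (-0.27). Pdia4 did not pass without vector PBS replicate 2 or 3 or any 1 of the PGC-1a1 PBS arrays (-0.24 to -0.33), and Ern1 not without vector PBS replicate 1 or 2 or PGC-1a1 PBS replicate 1 or 3 (-0.23 to -0.28). With each array centred on its median, 5 members were higher and 2 lower; by quantile normalization 6 and 4 were, with 1381 and 1121 of all genes against 1220 and 637. In the ATF4 and CHOP arm the 6 genes that did not pass in PGC-1a1 cells under PBS were Atf4 (0.14 ± 0.07), Ddit3 (0.15 ± 0.09), Trib3 (-0.05 ± 0.11), Asns (0.08 ± 0.08), Sesn2 (0.28 ± 0.23) and Cebpb (0.22 ± 0.08). Of the sensors, Xbp1 (-0.04 ± 0.15), Atf6 (0.34 ± 0.14) and Eif2ak3 (0.02 ± 0.13) did not pass. The 5 degradation and translocon genes did not pass either, with values from -0.11 for Sec61b to 0.34 for Herpud1. The other 8 chaperones lay between -0.10 for Pdia3 and 0.30 for Canx.

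In PGC-1a4 cells under PBS limma called 0 of 31 members, beside 0.0775% of all genes called higher and 0.129% called lower. Of all calls 37.5% were higher ones, and 69.8% with each array centred on its median. At an unadjusted limma p under 0.05 there were 9, of which 4 were higher and 5 lower. Limma with trended, robust moderation called 3 members, with array weights 5 and after quantile normalization 2. The member with the largest difference was Ddit3, which read 9.75, 9.92 and 9.75 in vector and 9.48, 9.37 and 9.37 in PGC-1a4 arrays, without overlap (-0.40 ± 0.09, adjusted p = 0.079). Atf4 differed by -0.28 ± 0.07 (adjusted p = 0.128) and Nupr1 by -0.28 ± 0.08 (adjusted p = 0.164), also without overlap. Manf (0.14 ± 0.08) and Dnajb9 (-0.23 ± 0.08), which led in PGC-1a1 cells, did not pass.

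The isoforms were also compared directly under PBS. PGC-1a1 cells had 8 members higher and 2 lower than PGC-1a4 cells, beside 10.3% and 7.08% of all genes, with a median of 0.09 against 0.03. Quantile normalization gave 8 and 5, and without PGC-1a1 PBS replicate 1 there were 6 in all. Of 6 called members with further probe sets, 2 had another called the same way, Hspa5 and Vldlr. No other probe set of Ddit3, Atf4, Pdia6 or Dnajc3 was called. Other probe sets of Sel1l, Xbp1, Ern1 and Cebpb were called, while their brightest ones did not pass. Dnajb9 was 1.38 ± 0.08 higher, or 2.61-fold (adjusted p = 3.24e-09), and Manf 1.20 ± 0.08 higher, or 2.29-fold (adjusted p = 1.4e-08). In the ATF4 and CHOP arm 4 of 9 were higher and 0 lower, namely Ppp1r15a (0.75 ± 0.09), Ddit3 (0.55 ± 0.09), Vldlr (0.50 ± 0.13) and Atf4 (0.42 ± 0.07). With the mean of its probe sets Atf4 was at 0.22 and did not pass. Atf4 read 13.25, 13.26 and 13.35 in PGC-1a1 and 12.91, 12.86 and 12.83 in PGC-1a4 arrays, with the vector arrays between them at 13.12, 13.14 and 13.18. Pdia6 was 0.62 ± 0.07 lower in PGC-1a1 cells. Vldlr lost its call if PGC-1a1 PBS replicate 1 (0.38) or PGC-1a4 PBS replicate 2 (0.42) was left out. The other 3 calls were lost without any 1 of several arrays: Hspa5 (0.21 ± 0.07) without each of the 6 in turn (0.18 to 0.24), Dnajc3 (0.32 ± 0.10) without any but the third PGC-1a4 PBS array (0.27 to 0.35) and Pdia4 (-0.30 ± 0.09) without any but the third PGC-1a1 PBS and the second PGC-1a4 PBS array (-0.25 to -0.31).

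**Figure D4:**
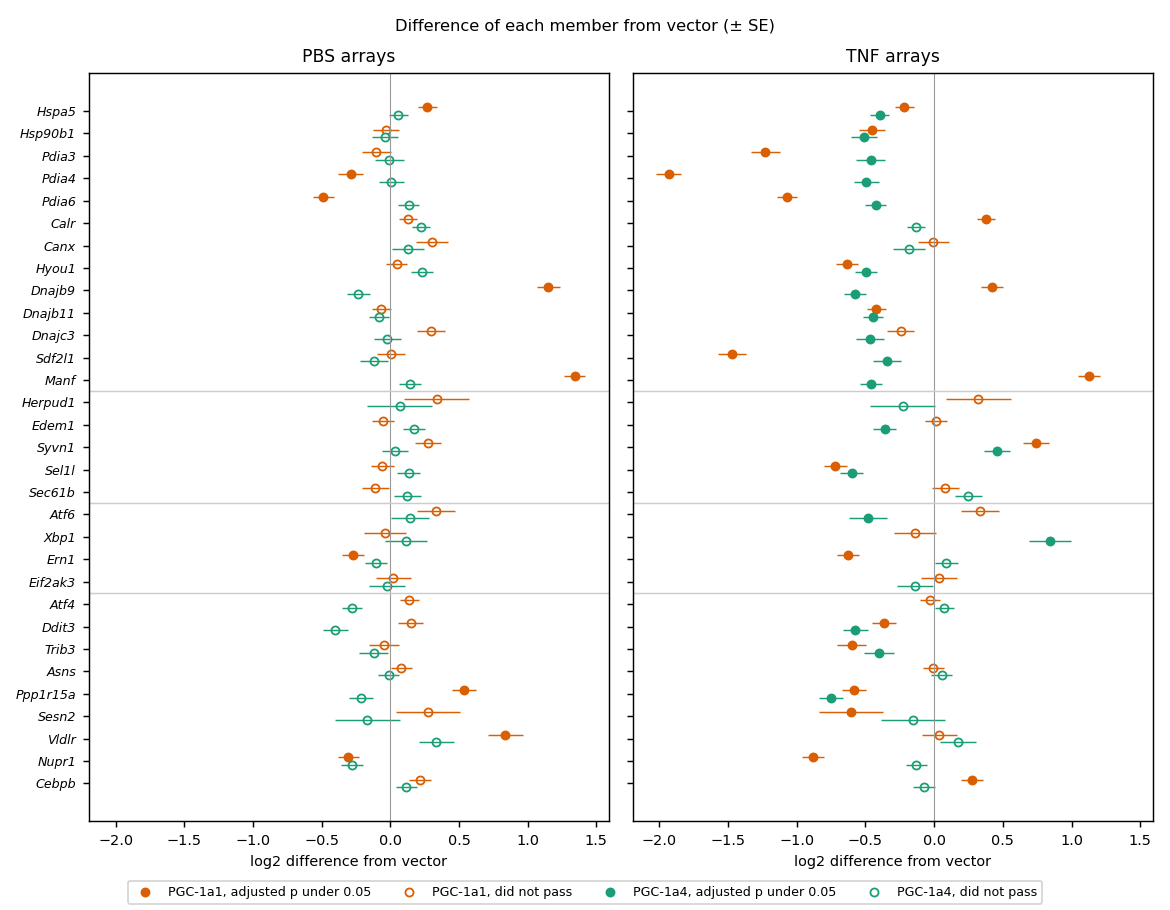
Log2 difference from vector (horizontal axis, ± SE) of the 31 members (vertical axis, by arm) under PBS and under TNF. Orange points are PGC-1a1 and green points PGC-1a4; filled points passed the adjusted p of 0.05 and open points did not. Most chaperones are near 0 under PBS and to the left under TNF, with Manf and Dnajb9 of PGC-1a1 cells to the right in both panels.

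With TNF, 15 of 31 members were lower and 5 were higher in PGC-1a1 than in vector cells, where 20.5% of all genes were lower and 20.8% higher. The median was -0.22 over the members and -0.03 over all genes. In PGC-1a4 cells 17 were lower and 2 higher, beside 12.3% and 21.1% of all genes, with medians of -0.36 and 0.01. These comparisons lie within the TNF arrays, and both share the 3 vector arrays, so their values are set side by side only. The hepatocyte, Kupffer cell, endothelial and stellate cell marker means of the vector TNF arrays stood apart from those of both isoforms, as given above.

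In the chaperone arm 8 genes were lower and 3 higher in PGC-1a1 cells (median -0.42), and 11 were lower and 0 higher in PGC-1a4 cells (median -0.46). The sizes differed more among genes in PGC-1a1 cells, from -1.93 to 1.13, than in PGC-1a4 cells, from -0.58 to -0.13. Pdia4 read 11.79, 12.07 and 11.80 in vector, 9.92, 10.04 and 9.90 in PGC-1a1 and 11.40, 11.45 and 11.34 in PGC-1a4 arrays. The 3 groups did not overlap, and Pdia4 was 1.93 ± 0.09 lower, or 3.82-fold, in PGC-1a1 (adjusted p = 1.35e-11) and 0.49 ± 0.09 lower in PGC-1a4 cells (adjusted p = 0.000417). Sdf2l1 read 10.03, 9.96 and 10.02 in vector, 8.66, 8.40 and 8.54 in PGC-1a1 and 9.73, 9.55 and 9.70 in PGC-1a4 arrays. It was 2.78-fold lower in PGC-1a1 cells (-1.47 ± 0.10, adjusted p = 2.38e-09) and -0.34 ± 0.10 in PGC-1a4 cells, a call that was lost without PGC-1a4 TNF replicate 2 (-0.29).

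Pdia3 read 13.20, 13.26 and 13.20 in vector TNF arrays and 12.02, 11.94 and 12.01 in PGC-1a1 TNF arrays, the latter within the 12.01 to 12.51 of vector PBS arrays. It was 1.23 ± 0.10 lower, or 2.35-fold, in PGC-1a1 and 0.46 ± 0.10 lower in PGC-1a4 cells. Pdia6 was 1.07 ± 0.07 and 0.43 ± 0.07 lower, and Hyou1 0.63 ± 0.08 and 0.49 ± 0.08 lower. Hsp90b1 was 0.45 ± 0.10 and 0.51 ± 0.10 lower and Dnajb11 0.42 ± 0.07 and 0.44 ± 0.07 lower. For these genes the isoforms differed by less than the SE on the brightest probe set, but the second probe set of Hsp90b1 was called between them. The second probe sets of Pdia3, Pdia6, Hyou1 and Hsp90b1 were also called lower in PGC-1a1 cells (-0.41, -0.40, -0.36 and -0.36). Hspa5 was -0.22 ± 0.07 in PGC-1a1 and -0.40 ± 0.07 in PGC-1a4 cells. The first of these did not pass without vector TNF replicate 1 (-0.20), vector TNF replicate 3 (-0.20) or PGC-1a1 TNF replicate 2 (-0.19), and the other probe sets of Hspa5 were at 0.13 and 0.25.

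A pair of chaperone genes was higher in PGC-1a1 and lower in PGC-1a4 cells. Manf read 12.61, 12.72 and 12.61 in vector, 13.79, 13.75 and 13.79 in PGC-1a1 and 12.23, 12.16 and 12.19 in PGC-1a4 arrays. It was 1.13 ± 0.08 higher in PGC-1a1 (adjusted p = 2.64e-09) and 0.46 ± 0.08 lower in PGC-1a4 cells (adjusted p = 0.000262). Dnajb9 was 0.42 ± 0.08 higher and 0.58 ± 0.08 lower, with 12.54, 12.58 and 12.51 in vector, 12.98, 12.97 and 12.93 in PGC-1a1 and 11.88 to 12.02 in PGC-1a4 arrays. Calr was 0.37 ± 0.07 higher in PGC-1a1 cells and -0.13 ± 0.07 in PGC-1a4 cells, which did not pass. Canx did not pass in either isoform (-0.01 ± 0.11 and -0.18 ± 0.11), though both of its other probe sets were called lower in PGC-1a4 cells (-0.49 and -0.39). Dnajc3 was -0.24 ± 0.10 in PGC-1a1 cells (adjusted p = 0.0606) and 0.47 ± 0.10 lower in PGC-1a4 cells.

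**Figure D5:**
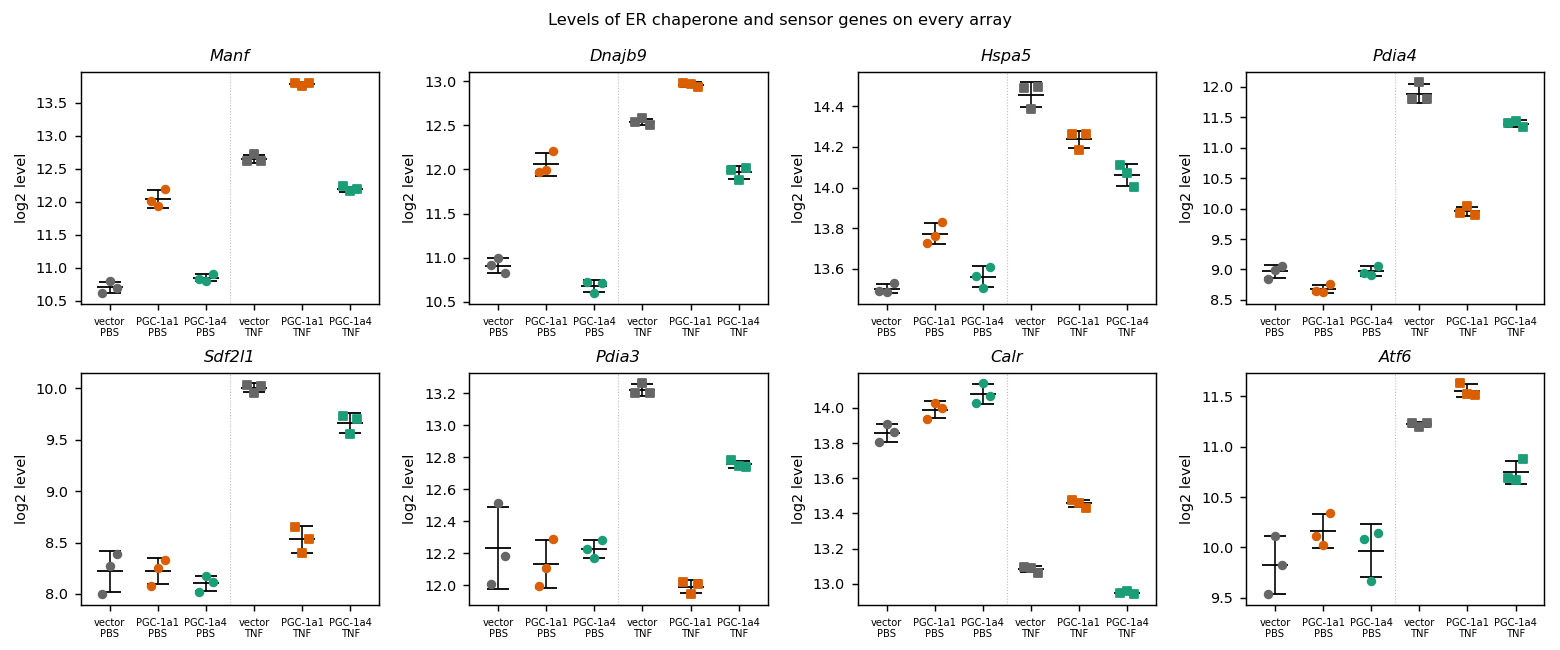
Log2 level (vertical axis) of 7 ER chaperone genes and Atf6 on every array, by group. Points are arrays (circles PBS, squares TNF) and bars are the mean ± SD of 3 arrays; each panel has its own scale. Pdia4, Sdf2l1 and Pdia3 are far lower in PGC-1a1 than in vector TNF arrays, while Manf and Dnajb9 are highest in PGC-1a1 TNF arrays.

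In the ATF4 and CHOP arm, 5 of 9 genes were lower and 1 was higher than vector in PGC-1a1 cells with TNF (median -0.37), and 3 were lower and 0 higher in PGC-1a4 cells (median -0.13). Ddit3 read 12.34, 12.47 and 12.40 in vector, 12.05, 11.97 and 12.10 in PGC-1a1 and 11.91, 11.95 and 11.63 in PGC-1a4 arrays. It was 0.37 ± 0.09 lower in PGC-1a1 (adjusted p = 0.00318) and 0.57 ± 0.09 lower in PGC-1a4 cells (adjusted p = 0.000102), on both probe sets in each. Ppp1r15a was 0.58 ± 0.09 and 0.75 ± 0.09 lower, and Trib3 0.60 ± 0.11 and 0.40 ± 0.11 lower. Nupr1 read 11.37, 11.29 and 11.49 in vector, 10.57, 10.51 and 10.43 in PGC-1a1 and 11.25, 11.25 and 11.27 in PGC-1a4 arrays. It was 0.88 ± 0.08 lower in PGC-1a1 cells (adjusted p = 5.17e-08) and -0.13 ± 0.08 in PGC-1a4 cells, which did not pass.

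Atf4, Asns and Vldlr did not pass in either isoform. Asns read 12.04, 12.07 and 12.10 in vector, 12.08, 12.05 and 12.06 in PGC-1a1 and 12.11, 12.16 and 12.11 in PGC-1a4 arrays, with differences of -0.01 ± 0.08 and 0.06 ± 0.08. Atf4 differed by -0.03 ± 0.07 and 0.07 ± 0.07 on its brightest probe set, and another of its probe sets was called lower in PGC-1a4 cells (-0.47). Vldlr differed by 0.04 ± 0.13 and 0.17 ± 0.13. Cebpb was 0.28 ± 0.08 higher in PGC-1a1 cells. Sesn2 was -0.61 ± 0.23 in PGC-1a1 cells (adjusted p = 0.0468), and the call was lost without any 1 of the 6 arrays (-0.57 to -0.67).

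Of the 4 sensor genes, Ern1 passed in PGC-1a1 cells, Xbp1 and Atf6 passed in PGC-1a4 cells, and Eif2ak3 passed in neither (0.04 ± 0.13 and -0.14 ± 0.13). Ern1 read 11.01, 10.88 and 10.97 in vector and 10.24, 10.38 and 10.37 in PGC-1a1 TNF arrays. It was 0.63 ± 0.08 lower in PGC-1a1 cells (adjusted p = 5.61e-06) and 0.09 ± 0.08 in PGC-1a4 cells, which did not pass. Xbp1 read 12.43, 11.91 and 12.51 in vector and 13.00, 13.29 and 13.10 in PGC-1a4 arrays, without overlap. It was 0.84 ± 0.15 higher in PGC-1a4 cells (adjusted p = 0.000404), 2 further probe sets were called higher there (0.68 and 0.83), and in PGC-1a1 cells it was -0.14 ± 0.15. Atf6 was 0.33 ± 0.14 in PGC-1a1 cells (adjusted p = 0.0641) and 0.48 ± 0.14 lower in PGC-1a4 cells.

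Syvn1 was higher in both isoforms, by 0.74 ± 0.09 in PGC-1a1 and 0.46 ± 0.09 in PGC-1a4 cells. Its second probe set was called higher in PGC-1a1 cells and was not called in PGC-1a4 cells. Edem1 was 0.36 ± 0.08 lower in PGC-1a4 cells and 0.01 ± 0.08 in PGC-1a1 cells. The brightest probe set of Sel1l was lower in both isoforms (-0.72 ± 0.08 and -0.60 ± 0.08). Its 3 others were not uniform: 0.40 and -0.31 were both called in PGC-1a4 cells, and none was called in PGC-1a1 cells. Herpud1 (0.32 ± 0.24 in PGC-1a1 and -0.23 ± 0.24 in PGC-1a4 cells) and Sec61b (0.08 ± 0.10 and 0.25 ± 0.10) did not pass. The other probe set of Herpud1 was called in PGC-1a1 cells.

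Set directly against PGC-1a4 under TNF, PGC-1a1 cells had 7 members higher and 7 lower, beside 15.2% and 21.3% of all genes, with a median of 0.02 against -0.02. The higher ones were Manf (1.59 ± 0.08, or 3.01-fold, adjusted p = 7.4e-11), Dnajb9 (1.00 ± 0.08), Atf6 (0.81 ± 0.14), Calr (0.51 ± 0.07), Edem1 (0.37 ± 0.08), Cebpb (0.35 ± 0.08) and Syvn1 (0.29 ± 0.09). The lower ones were Pdia4 (-1.44 ± 0.09, or 2.71-fold, adjusted p = 1.24e-09), Sdf2l1 (-1.13 ± 0.10), Xbp1 (-0.98 ± 0.15), Pdia3 (-0.77 ± 0.10), Nupr1 (-0.75 ± 0.08), Ern1 (-0.72 ± 0.08) and Pdia6 (-0.65 ± 0.07). The second probe set of Pdia6 was at 0.12. Syvn1 did not pass without PGC-1a1 TNF replicate 1 (0.24), PGC-1a4 TNF replicate 1 (0.27) or PGC-1a4 TNF replicate 3 (0.26). On the brightest probe sets 3 of 13 chaperones were thus higher and 4 lower (23.1% and 30.8%). In the ATF4 and CHOP arm 1 of 9 was higher and 1 lower (11.1% each), both under the background. The counts depend on the probe set. Among genes of these arms that did not pass, both other probe sets of Hspa5 and of Dnajc3 were called. So was the other one of Hsp90b1, and 1 of 2 others of Canx and of Atf4. The second probe set of Pdia3 was not called.

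Whether the difference between TNF and PBS itself depended on the virus was tested as an interaction. Relative to vector, it was smaller or more negative for 17 members and larger for 1 in PGC-1a1 cells, beside 12% and 13.4% of all genes, with a median of -0.42 against -0.01. In PGC-1a4 cells it was lower for 15 and higher for 3, beside 4.12% and 11.9%, with a median of -0.31 against 0.05. The chaperone arm held 10 of the 17 and 11 of the 15, and the ATF4 and CHOP arm 5 and 1. The lowest in PGC-1a1 cells were Pdia4 (-1.64 ± 0.13), Sdf2l1 (-1.48 ± 0.15), Pdia3 (-1.13 ± 0.15) and Ppp1r15a (-1.12 ± 0.12, with 0.54 ± 0.09 against vector under PBS). In PGC-1a4 cells they were Sel1l (-0.74 ± 0.12, on the brightest probe set, and 0.12 on the most variable one), Hyou1 (-0.72 ± 0.11), Atf6 (-0.62 ± 0.20) and Manf (-0.60 ± 0.11). Of the 3 that were higher in PGC-1a4 cells, Atf4 (0.35 ± 0.10) was at -0.063 when its probe sets were averaged and at -0.25 on the most variable one, and Syvn1 (0.43 ± 0.13) at -0.061 on its most variable one. Atf6 lost its call without any 1 of 9 arrays, that is all but replicate 2 of vector PBS and PGC-1a4 PBS and replicate 3 of PGC-1a4 TNF (-0.47 to -0.63). The PGC-1a4 count of 18 fell to 11 with either vector or PGC-1a4 PBS replicate 3 left out, and to 10 without PGC-1a4 TNF replicate 2. Between the isoforms the interaction was lower in PGC-1a1 for 10 members and higher for 4, beside 12.6% and 7.18% of all genes, with a median of -0.03 against -0.05. Quantile normalization made 58.4% of the interactions called over all genes in PGC-1a4 cells higher ones, against 74.2% without it.

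Further genes of the same pathways were counted in 5 lists. With TNF, the background over all genes was 20.5% lower and 20.8% higher for PGC-1a1 against vector and 12.3% lower and 21.1% higher for PGC-1a4 against vector. Of 42 other ER chaperones, oxidoreductases and glycosylation genes 15 were lower (35.7%) and 7 higher (16.7%) in PGC-1a1 cells. In PGC-1a4 cells 3 were lower (7.14%) and 5 higher (11.9%), both under the background. Set directly against PGC-1a4 with TNF, PGC-1a1 cells had 16 of the 42 lower and 6 higher, where 21.3% and 15.2% of all genes were. Mcfd2, a cargo receptor of coagulation factors, was 1.31 higher in PGC-1a1 and 0.49 higher in PGC-1a4 cells than in vector cells, and Rpn1, a subunit of the oligosaccharyltransferase, was at -0.72 in PGC-1a1 cells. Under PBS, Ero1a, the oxidase that recharges the disulfide isomerases, was 1.05 higher in PGC-1a1 than in vector cells, among 3 genes higher and 3 lower of the 42. Of 19 other degradation genes 5 were lower (26.3%) and 5 higher (26.3%) in PGC-1a1 cells with TNF, and 4 (21.1%) and 7 (36.8%) in PGC-1a4 cells, with Vcp, the ATPase that pulls substrates from the ER, at -0.85 in PGC-1a1 cells.

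Of 19 other sensors and regulators of eIF2alpha 7 were lower and 7 higher (36.8% each) in PGC-1a1 cells with TNF, and 3 (15.8%) and 8 (42.1%) in PGC-1a4 cells. The membrane-bound factor Creb3l3 was 1.71 higher in PGC-1a1 and 0.95 higher in PGC-1a4 cells. Of 35 other ATF4 and CHOP targets 14 were lower (40%) and 4 higher (11.4%) in PGC-1a1 cells, led by the cystine transporter Slc7a11 (-1.50), the serine synthesis enzyme Phgdh (-1.04) and Aldh1l2 of mitochondrial folate metabolism (-0.96). In PGC-1a4 cells 7 were lower (20%) and 8 higher (22.9%), the latter near the background of 21.1%. Slc7a11 was also the only one of the 131 genes of these 5 lists called in PGC-1a4 cells under PBS (-0.93). Of 16 cytosolic aminoacyl-tRNA synthetases, many of which are ATF4 targets, 7 were lower (43.8%) and 2 higher (12.5%) in PGC-1a1 cells with TNF, with Gars at 1.22 and Vars at -0.60, and 3 (18.8%) and 1 (6.25%) in PGC-1a4 cells.

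Between TNF and PBS arrays of vector cells, where 34.7% of all genes were higher and 36.6% lower, 25 of the 42 (59.5%), 11 of the 19 degradation (57.9%), 9 of the 19 sensor (47.4%), 22 of the 35 (62.9%) and 12 of the 16 synthetase genes (75%) were higher with TNF. In the same order 9, 5, 6, 8 and 3 were lower, or 21.4%, 26.3%, 31.6%, 22.9% and 18.8%. No difference between a list and all genes was tested.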

How the data were processed

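Labelled cRNA of the 18 samples was read on Affymetrix arrays, per the labels' protocols. The authors deposited log2 values from RMA and affy, per the submitters' processing notes. Versions, and whether all arrays were normalized as one set, are not given in these sources. This method is known to compress large folds. The table was held in part: 1 of 33246 rows was incomplete and dropped, and of 33245 probe sets 25951 named 1 gene, 686 several and 6608 none. Symbols came from the platform annotation, updated through RefSeq for 25803 probe sets.

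A model with a mean for each group was fitted in limma to the 18 arrays (version 3.58.1, R 4.3.3; 12 residual and 5.08 prior degrees of freedom) with 12 contrasts, 9 of 2 groups and 3 interactions. Tests were two-sided. The 62 probe sets of the members were tested among all 25951. Precision is limited by the number of arrays; signal over background is not used here. The members and all gene lists were chosen with earlier results of these data known. By the rule for named genes any member may be named in any contrast, with the others given by counts and ranges, and so may up to 4 genes of each further list with the smallest p among those that passed, Ppargc1a and the marker lists. Tnf was listed too: its group means lay between 7.45 and 8.00. Alternatives were other moderation, fewer arrays, array weights, a replicate block, other scalings and probe set rules, a dim filter, stricter thresholds and leaving out each array. Promoter windows and motifs were read from a RefSeq table, with 31 of 34 members matched. The fit was tested on simulated data. Plots were made in Python 3.11.15 (matplotlib 3.10.9).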

Additional observations from a re-analysis of the deposited data

Results flagged for a closer look

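The interactions below passed limma's threshold (adjusted p under 0.05), so the difference between TNF and PBS arrays differed between viruses by a test of that difference itself. Each value is the TNF minus PBS difference of the first virus less that of the second, in log2 units, with 3 arrays in each of the 4 groups involved. Treatment and array set cannot be told apart in either virus, and the vector arrays are shared by the first 2 sets. A negative value can come from a higher PBS level in the first virus as well as from a lower TNF level. The values are those of the brightest probe set. For PGC-1a1 against vector, 6 of 12 called members with further probe sets had another called the same way. Pdia3, Pdia6, Hyou1, Dnajc3, Sel1l and Ern1 did not. The counts were 6 of 11 for PGC-1a4 against vector, without Pdia3, Pdia6, Calr, Syvn1 and Atf4. Between the isoforms they were 4 of 7, without Pdia3, Ern1 and Atf4.

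For PGC-1a1 against vector, the chaperone genes that passed were Pdia4 (-1.64), Sdf2l1 (-1.48), Pdia3 (-1.13), Dnajb9 (-0.73), Hyou1 (-0.68), Pdia6 (-0.59), Dnajc3 (-0.54), Hspa5 (-0.49), Hsp90b1 (-0.42) and Dnajb11 (-0.36). In the ATF4 and CHOP arm they were Ppp1r15a (-1.12), Vldlr (-0.80), Nupr1 (-0.58), Trib3 (-0.55) and Ddit3 (-0.51). Among these genes Dnajb9 (1.15), Vldlr (0.84), Ppp1r15a (0.54) and Hspa5 (0.27) were already called higher than vector under PBS. Pdia6 (-0.49), Nupr1 (-0.30) and Pdia4 (-0.29) were called lower there. With TNF, Dnajb9, Vldlr and Ppp1r15a were at 0.42, 0.04 and -0.58 against vector. Of the other arms Sel1l (-0.66) and Ern1 (-0.35) were lower and Syvn1 (0.47) was higher, though Sel1l was at 0.32 on its most variable probe set. Ern1 did not pass without vector PBS replicate 1 or 3, PGC-1a1 PBS replicate 2, vector TNF replicate 1 or 3, or PGC-1a1 TNF replicate 1 (-0.31 to -0.35). Hsp90b1 did not pass without vector PBS replicate 2, PGC-1a1 PBS replicate 2 or 3, vector TNF replicate 1 or 2, or PGC-1a1 TNF replicate 2 (-0.34 to -0.41).

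For PGC-1a4 against vector, the chaperone genes were Hyou1 (-0.72), Manf (-0.60), Pdia6 (-0.56), Pdia4 (-0.50), Hsp90b1 (-0.47), Pdia3 (-0.46), Dnajc3 (-0.45), Hspa5 (-0.45), Dnajb11 (-0.36), Calr (-0.35) and Dnajb9 (-0.34). In the ATF4 and CHOP arm Ppp1r15a (-0.53) was lower and Atf4 (0.35) higher on its brightest probe set. Neither of the other 2 probe sets of Atf4 was called, and its sign turned with the mean of the probe sets (-0.063) and with the most variable one (-0.25). Sel1l (-0.74), Atf6 (-0.62) and Edem1 (-0.53) were lower, and Xbp1 (0.73) and Syvn1 (0.43) higher. On the most variable probe set the signs of Sel1l (0.12) and Syvn1 (-0.061) turned too. In this set 9 of the 18 genes lost their call without at least 1 array, and the other 9 did not. Dnajb11 did so without vector PBS replicate 3 or PGC-1a4 PBS replicate 3 (-0.31 to -0.34), and Hsp90b1 with replicate 2 of the vector PBS, PGC-1a4 PBS or PGC-1a4 TNF arrays left out (-0.39 to -0.44). Atf4 did so without vector PBS, PGC-1a4 PBS or vector TNF replicate 3 or PGC-1a4 TNF replicate 1 or 2 (0.32 to 0.34), and Xbp1 with replicate 2 of any of the 4 groups, or replicate 3 of PGC-1a4 PBS, left out (0.54 to 0.73). Dnajc3 did so without vector PBS replicate 1 or 3, PGC-1a4 PBS replicate 3, vector TNF replicate 1 or 3, or PGC-1a4 TNF replicate 2 or 3 (-0.34 to -0.44). For the remaining 4 most arrays mattered. Pdia3 kept its call only without vector PBS replicate 2 (-0.34 to -0.48 otherwise), and Dnajb9 only without replicate 2 of vector PBS or PGC-1a4 PBS (-0.30 to -0.37 otherwise). Syvn1 kept it only without replicate 1 of vector PBS or replicate 3 of PGC-1a4 PBS or TNF (0.34 to 0.45 otherwise), and Atf6 only without replicate 2 of vector PBS or PGC-1a4 PBS or replicate 3 of PGC-1a4 TNF (-0.47 to -0.63 otherwise).

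For PGC-1a1 against PGC-1a4, Calr (0.60), Manf (0.39), Edem1 (0.60) and Atf6 (0.62) were higher. Sdf2l1 (-1.25), Pdia4 (-1.15), Xbp1 (-0.83), Nupr1 (-0.73), Pdia3 (-0.67), Vldlr (-0.64), Ppp1r15a (-0.59), Ern1 (-0.55), Atf4 (-0.52) and Dnajb9 (-0.39) were lower, though Atf4 was at 0.19 on its most variable probe set. Dnajb9 did not pass without replicate 3 of PGC-1a1 PBS or PGC-1a4 TNF or replicate 2 of PGC-1a4 PBS (-0.31 to -0.36), Manf not without PGC-1a1 PBS replicate 2 or PGC-1a4 PBS replicate 3 (0.33 and 0.36), and Vldlr not without PGC-1a1 PBS replicate 1 or replicate 2 of PGC-1a4 PBS or TNF (-0.52 to -0.56). Atf6 kept its call only without PGC-1a1 PBS replicate 3, PGC-1a4 PBS replicate 2, PGC-1a1 TNF replicate 3 or PGC-1a4 TNF replicate 3 (0.53 to 0.63 otherwise).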

How the results depend on the processing

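Over the 12 comparisons, 205 calls of members were made. Of these, 1 was lost with trended, robust moderation, 3 with array weights, 11 with quantile normalization, 13 with centring on the median, 19 with the mean of a gene's probe sets and 13 with the most variable probe set. A minimum fold of 1.5 removed 92 and an adjusted p of 0.01 removed 39. The count for PGC-1a1 against vector under PBS, 9, became 5 when only the arrays compared were fitted, 5 at an adjusted p of 0.01 and 3 at a fold of 1.5. For PGC-1a4 under PBS, 0 became 3 with trended moderation, 5 with array weights and 2 with quantile normalization. At an adjusted p of 0.01 the count between the isoforms under PBS became 6, that of the PGC-1a4 interaction 7 and that of the interaction between isoforms 9. At a fold of 1.5 the counts became 4 between the isoforms under PBS, 12 for PGC-1a1 and 3 for PGC-1a4 against vector under TNF, 15 for TNF in PGC-1a1 and 19 in PGC-1a4 cells, 9 for the PGC-1a1 interaction and 5 for the PGC-1a4 interaction, which was 11 with the most variable probe set. Leaving out 1 array at a time gave 6 to 9 calls between the isoforms under PBS and 10 to 16 for the PGC-1a4 interaction.

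The replicate numbers did not pair the arrays: deviations of same-numbered arrays correlated at -0.14 to 0.23, and 8 of 18 arrays correlated best with their own number. With the replicate block 5 calls were lost and 2 gained, and the count for PGC-1a1 against vector under TNF was 19 and for the PGC-1a4 interaction 15.

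Some directions reversed, and the cause was not tested. With quantile normalization, TNF against PBS gave -0.24 for Pdia6, -0.10 for Sec61b and -0.0088 for Edem1 in vector cells, -0.032 for Atf4, -0.29 for Trib3 and -0.0022 for Dnajb11 in PGC-1a1 cells, and -0.10 for Sel1l in PGC-1a4 cells. With the mean of the probe sets, TNF against PBS gave -0.71, -0.77 and -0.94 for Sel1l in vector, PGC-1a1 and PGC-1a4 cells, -0.23 for Pdia6 in vector, 0.075 for Syvn1 in PGC-1a1 and -0.11 for Xbp1 in PGC-1a4 cells. The most variable probe set gave -2.13, -1.82 and -2.01 for Sel1l, -0.66 for Pdia6, 0.38 for Syvn1 and -0.48 for Xbp1 there. Under TNF, Hspa5 in PGC-1a1 against vector was 0.052 with the mean and 0.13 with the most variable probe set. The latter also gave 0.057 for Sel1l in PGC-1a1 and 0.23 in PGC-1a4 against vector, -0.47 for Atf4 in PGC-1a4 against vector, and 0.47 for Atf4 and 0.12 for Pdia6 between the isoforms. Of the interactions, the mean gave -0.063 for Atf4 in PGC-1a4 cells and 0.50 for Dnajc3 between the isoforms, and the most variable probe set gave -0.25 for Atf4, 0.12 for Sel1l and -0.061 for Syvn1 in PGC-1a4 cells, 0.32 for Sel1l in PGC-1a1 cells and 0.19 for Atf4 between the isoforms.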
